A study of Homo sapiens with 6 samples.

Results

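The genes described here are 10 nuclear genes for proteases and a chaperone that work inside mitochondria, chosen by name for their function. No measured value set the choice, but it was made with earlier results of these data known. *LONP1*, *CLPP*, *CLPX*, *YME1L1*, *AFG3L2*, *SPG7*, *OMA1*, *DELE1*, *HTRA2* and *TRAP1* make up 10 of the 60609 genes in the deposited tables, and all 10 are among the 20725 genes with enough counts to be tested. They were measured in OCI-AML5, an established cell line derived from acute myeloid leukemia that is grown in aMEM with serum and the cytokine GM-CSF. Cells received either the solvent DMSO or 1 μM of the compound S767 for 24 hours, and stranded libraries of polyadenylated RNA were sequenced from 3 cultures per group. The groups differ only in S767 as far as the labels tell, and a single cell line stands for the disease.

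Mitochondria degrade damaged or unneeded proteins with their own ATP-dependent proteases. LONP1 and the CLPXP complex, in which the CLPX unfoldase feeds substrates to the CLPP peptidase, work in the matrix, whereas YME1L1 and the complexes built from AFG3L2 and SPG7 sit in the inner membrane and act on its opposite faces. OMA1 is a membrane protease that is activated by stress and cleaves the fusion protein OPA1 and the messenger DELE1, which then activates the eIF2α kinase EIF2AK1 in the cytosol and so starts the integrated stress response. HTRA2 is a serine protease of the intermembrane space and TRAP1 is the mitochondrial member of the HSP90 chaperones. The comparison of S767 with DMSO asks whether the transcripts of this quality-control system differed after a day of exposure.

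The 6 libraries held 149994700 to 258029564 fragments on genes, so counting error was small for the levels of the 10 genes. The fragments assigned to the 10 genes ranged from 2027, for *OMA1*, to 86033, for *LONP1*, in a library. As a check of the labelled cell type, the leukocyte gene *PTPRC* was at 65.7 to 83.9 TPM (a level scaled to the library and corrected for transcript length), the myeloid gene *CD33* at 88.6 to 105.9 TPM and the myeloid factor gene *SPI1* at 214 to 258.5 TPM, whereas the T-cell gene *CD3E* was listed at 0 and the epithelial gene *EPCAM* reached no more than 0.35 TPM. The myeloid surface marker *ANPEP* was nearly absent, at 0.02 to 0.09 TPM. The labels do not say how far the cultures of a group were independent, so P values measure only the spread between these cultures.

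None of the 10 transcripts passed the test in either direction. In edgeR's quasi-likelihood test 0 members reached an unadjusted P under 0.05, a threshold that 3.53% of all tested genes passed, and 0 reached an adjusted P under 0.05, which 1 gene in all (0.00483%) did. The log2 fold changes lay between -0.07, for *AFG3L2*, and 0.12, for *OMA1*, with 6 members below 0 and 4 above. Their median was -0.017, beside -0.00024 over all tested genes. The 95% intervals bounded every member between a fold change of 0.882, the lower limit for *AFG3L2*, and 1.24, the upper limit for *OMA1*. A P that misses the threshold does not show that the levels were equal. These bounds state, gene by gene, the differences still allowed by the fit that leaves out the replicate number. With the replicate number as a block, the log2 intervals were -0.12 to -0.02 for *AFG3L2* and 0.03 to 0.21 for *OMA1*. In bulk RNA, fewer cells with a transcript and less of it per cell cannot be told apart. The plot of log2 fold changes shows these estimates with their intervals.

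**Figure D1:**
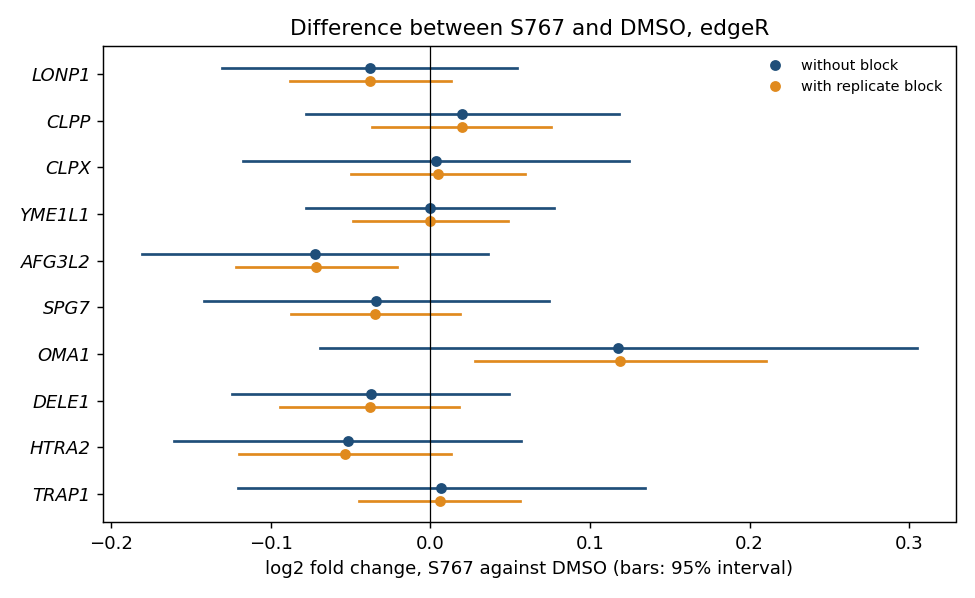
Log2 fold change of the 10 genes, S767 over DMSO, with its 95% interval, from edgeR fits without and with the replicate number as a block. The intervals without the block all include 0, and with the block the intervals of *AFG3L2* (-0.12 to -0.02) and *OMA1* (0.03 to 0.21) do not.

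Measured per transcript length, the members covered about an order of magnitude. *LONP1* had the highest level, at 176 ± 6.14 TPM (SD, n = 6 libraries), above 96.3% of the tested genes. It was followed by *CLPP* at 162 ± 5.14 TPM, *TRAP1* at 106 ± 2.94 TPM, *YME1L1* at 78.9 ± 1.77 TPM and *AFG3L2* at 73.9 ± 4.52 TPM. Next came *HTRA2* at 56.6 ± 1.67 TPM, *SPG7* at 54.3 ± 3.30 TPM, *CLPX* at 44.7 ± 2.38 TPM and *DELE1* at 42.5 ± 1.82 TPM. *OMA1* was lowest, at 17.0 ± 1.60 TPM, above 68.9% of the tested genes, and the highest level was 10.4 times the lowest. In this order the means of *HTRA2* and *SPG7*, and of *CLPX* and *DELE1*, differed by no more than the larger SD of each pair. The means of every other pair of neighbours differed by more than that. Single libraries could still overlap, as for *LONP1* (166.4 to 183.7 TPM) and *CLPP* (156.1 to 170.2 TPM). The same held for *YME1L1* (75.9 to 81.0 TPM) and *AFG3L2* (70.4 to 81.5 TPM).

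The starts of these genes were searched for a pair of sequence motifs, since nuclear genes for mitochondrial proteins are known to share regulators. One motif was that of NRF1 (GCGCA, any base, then GCGC, read on both strands), a factor known for driving nuclear genes of mitochondria, and the other was the C/EBP-ATF response element bound by ATF4 and CHOP (TGATGNAA, or TTNCATCA on the other strand). RefSeq promoter windows of GRCh38.p14 were matched by symbol for 8 of the 10 genes, all except *CLPP* and *YME1L1*, giving 11 windows of 250 bases before the start. The NRF1 letters occurred in 5 windows of 4 genes, beside 5.07% of all 35116 windows, and the C/EBP-ATF letters in 0 of the 11, beside 3.14% of all windows. The matches are shown here with 10 bases on either side, read 5′ to 3′ along the strand of the gene and with the matching letters in capitals.
LONP1, chr19:5720633-5720662, minus strand, outside every exon of GENCODE 29: ctgaagccctGCGCATGCGCatcaatgagt
CLPX, chr15:65185413-65185442, minus strand, outside every exon of GENCODE 29: cgggcctaggGCGCAGGCGCgcgcaagctc
SPG7, first match, chr16:89508318-89508347, plus strand, inside an annotated exon: tgtggggaccGCGCAGGCGCcacgtcagac
SPG7, second match, chr16:89508353-89508382, plus strand, also inside an annotated exon: ccaccccgccGCGCAGGCGCcgtgtagcgc
OMA1, chr1:58546735-58546764, minus strand, inside an annotated exon: gtgcgggtgcGCGCCTGCGCataggtcggg
The 2 windows of *SPG7* overlap and hold the same 2 matches. They begin at 89508138 and 89508153, inside the GENCODE 29 interval of the gene, which begins at 89490719. The RefSeq starts used for *SPG7* thus differ from the start of that interval. The *OMA1* match carries the reverse complement of the letters in *CLPX* and *SPG7*. The motif letters are mostly G and C, and so were the 11 windows, at 62.4% to 77.2%. A share among windows of like composition was not computed. A match is a description of these letters only, and binding was not measured.

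Among the matrix proteases, *LONP1* (ENSG00000196365.12, chr19:5691834-5720572, minus strand) was the most abundant. Its normalised level in CPM (fragments of the gene scaled by the normalised library size) was 334, 355 and 333 in DMSO replicates 1, 2 and 3, and 330.5, 339 and 326 in the same replicates of S767. The highest library was a DMSO library and the lowest an S767 library, and the groups overlapped. The mean was 340.5 ± 12.6 CPM in DMSO and 332 ± 6.63 CPM in S767 (SD, n = 3 each), a log2 fold change of -0.04 with a standard error of 0.04 (exact permutation P = 0.4, edgeR adjusted P = 1.00, as for all 10 genes).

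*CLPP* (ENSG00000125656.11, chr19:6361452-6368910, plus strand), the peptidase of CLPXP, was at 122, 121 and 114 CPM in DMSO and at 118, 126 and 118 CPM in S767. The highest value came from S767 replicate 2 and the lowest from DMSO replicate 3, with the rest between them. Its log2 fold change was 0.02, with a 95% interval of -0.08 to 0.12 (exact permutation P = 0.6). *CLPX* (ENSG00000166855.9, chr15:65148219-65185342, minus strand), the unfoldase of the same complex, was at 80.0, 90.2 and 87.0 CPM in DMSO and 82.2, 87.4 and 88.2 CPM in S767. All S767 values of *CLPX* lay inside the DMSO range, and its log2 fold change of 0.0035 had a 95% interval of -0.12 to 0.12 (exact permutation P = 0.9).

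*YME1L1* (ENSG00000136758.18, chr10:27110112-27155266, minus strand), the inner-membrane protease that faces the intermembrane space and also processes OPA1, was spread over a narrow range. Its level was 222, 228 and 227 CPM in DMSO and 224, 225 and 229 CPM in S767. The libraries interleaved, and the means were 226 ± 3.58 CPM in DMSO and 226 ± 2.59 CPM in S767 (SD, n = 3 each). The 95% interval of its log2 fold change, -0.08 to 0.08, was the narrowest of the 10, and its estimate of -0.00015 was smaller in size than that of all but 0.145% of the tested genes (exact permutation P = 1.0).

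*AFG3L2* (ENSG00000141385.9, chr18:12328944-12377314, minus strand) encodes the matrix-facing subunit that forms complexes by itself or with SPG7. It was at 159, 176 and 169 CPM in DMSO and at 155, 165 and 160.2 CPM in S767. DMSO replicate 1 lay among the S767 libraries, so the groups overlapped, while within each replicate number the S767 value was the lower one. The mean of 168 ± 8.74 CPM in DMSO and 159.9 ± 5.02 CPM in S767 (SD, n = 3 each) gave a log2 fold change of -0.07 with a standard error of 0.05 (exact permutation P = 0.3, edgeR adjusted P = 1.00). Without DMSO replicate 1 the value was -0.11, past the unadjusted limit of 0.05 but with an edgeR adjusted P of 0.996.

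*SPG7* (ENSG00000197912.15, chr16:89490719-89557768, plus strand), the partner subunit known as paraplegin, was at 102, 97.2 and 97.6 CPM in DMSO and 103, 92.9 and 94.5 CPM in S767. Replicate 1 was the highest in both groups and the S767 libraries spanned the DMSO ones. The log2 fold change was -0.03 with a standard error of 0.05 (exact permutation P = 0.6).

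*OMA1* (ENSG00000162600.12, chr1:58415384-58546802, minus strand) had the largest estimate of the 10 and the fewest fragments. Its level was 14.3, 13.6 and 12.4 CPM in DMSO and 15.9, 13.8 and 14.02 CPM in S767. Replicate 1 was the highest in both groups, and DMSO replicate 1 exceeded S767 replicates 2 and 3. The mean was 13.4 ± 0.966 CPM in DMSO and 14.6 ± 1.19 CPM in S767 (SD, n = 3 each), a log2 fold change of 0.12 with a standard error of 0.08 (exact permutation P = 0.4, edgeR adjusted P = 1.00). Without S767 replicate 1 it was 0.05, and without DMSO replicate 3 it was 0.06. *OMA1* lies within an interval shared on the same strand by *DAB1*, and RSEM assigned it 1.24 to 1.34 times the fragments of the gene count, more than for any other member.

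*DELE1* (ENSG00000081791.9, chr5:141923808-141942047, plus strand), which relays OMA1 activity to the cytosol, was at 61.8, 61.6 and 61.9 CPM in DMSO. The 3 values spread over an SD of 0.151 CPM, the smallest of any member. In S767 it was at 58.5, 61.9 and 60.3 CPM, with replicate 2 inside the DMSO range and the other libraries below it. The log2 fold change was -0.04 with a standard error of 0.04 (exact permutation P = 0.3, edgeR adjusted P = 1.00).

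*HTRA2* (ENSG00000115317.11, chr2:74529377-74533348, plus strand), which can be released to the cytosol where it blocks inhibitors of apoptosis, was at 53.7, 54.3 and 52.9 CPM in DMSO and 48.7, 53.9 and 52.6 CPM in S767. S767 replicate 1 was the lowest library, and S767 replicate 2 was above DMSO replicates 1 and 3. The log2 fold change was -0.05 with a standard error of 0.05 (exact permutation P = 0.3), and without S767 replicate 1 it was -0.0086. *TRAP1* (ENSG00000126602.11, chr16:3651639-3717597, minus strand), which folds proteins of the matrix, was at 134, 147 and 142 CPM in DMSO and 132, 149 and 144 CPM in S767. Its values followed the replicate number in both groups, and the log2 fold change was 0.0069 with a standard error of 0.06 (exact permutation P = 0.9).

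The replicate number accounted for more of the variation than the treatment did in all of these genes but *DELE1*. Of the variance in log2 CPM over the 6 libraries, the replicate number held 96.9% for *TRAP1*, 90.9% for *CLPX*, 80.7% for *YME1L1*, 80.6% for *SPG7* and 69.3% for *LONP1*, against treatment shares of 0.196%, 0.138%, 0.00088%, 10.8% and 22.7%. For *CLPP* the shares were 67.1% and 5.48%, for *AFG3L2* 62.9% and 33.1%, for *OMA1* 58.7% and 29.5%, and for *HTRA2* 39.3% and 24.8%. For *DELE1*, the 1 member with the larger treatment share, that share was 39.5% against 26.6%. The replicate number has 2 degrees of freedom and the treatment 1, so these shares describe the libraries and are no test. Replicate 2 was the highest number for 7 of the 10 genes, and replicate 1 for *SPG7* and *OMA1*. Shares over all tested genes were not computed for this count or for the variance shares. Neither can therefore be read as particular to the members.

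When the replicate number entered the fit as a block, 2 members reached an unadjusted P under 0.05, beside 16.8% of all tested genes, or 9.38% higher in S767 and 7.39% lower. *AFG3L2* was lower in S767, with a log2 fold change of -0.07 and a standard error of 0.02, whereas *OMA1* was higher, with 0.12 and a standard error of 0.04. Neither passed after adjustment over all genes, with edgeR adjusted P = 0.129 for *AFG3L2* and adjusted P = 0.163 for *OMA1*, a limit that 3.23% of all genes did pass in that fit. The log2 ratio within replicates 1, 2 and 3 was -0.04, -0.10 and -0.08 for *AFG3L2* and 0.16, 0.01 and 0.18 for *OMA1*. *LONP1* and *HTRA2* were also lower in all 3 pairs, which made 4 members of 10 with the same direction in each pair, beside 37.8% of all genes (17.8% lower and 19.9% higher). Without the replicate 1 pair, the blocked fit gave *AFG3L2* a log2 fold change of -0.09 with adjusted P = 0.00817, while 9.86% of the tested genes passed in that fit. That call rests on 2 pairs and was not made without the replicate 2 or the replicate 3 pair.

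On the TPM scale, *AFG3L2*, *DELE1* and *HTRA2* were lower in every S767 library than in any DMSO library. Such a separation in TPM was found for 7.86% of all tested genes, and for 4.55% in the lower direction. *DELE1* was at 44.0, 44.2 and 43.8 TPM in DMSO and 40.0, 41.7 and 40.9 TPM in S767. All 3 S767 values lay under the lowest DMSO value, with means of 44.0 ± 0.196 and 40.9 ± 0.886 TPM (SD, n = 3 each) and a log2 difference of -0.11. An exact permutation test gave P = 0.1, the smallest that 3 against 3 libraries allow. In limma on log2(TPM + 1) it passed the unadjusted limit of 0.05, with an adjusted P of 1.00.

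The difference of *DELE1* was thus larger in TPM than in CPM, where it was -0.04 and the groups overlapped. TPM divides by the mean length of the transcripts that RSEM assigned to the gene, and for *DELE1* that length was 1820, 1798 and 1853 bases in DMSO and 1905, 1850 and 1872 bases in S767. The S767 mean of 1876 ± 27.6 bases was above the DMSO mean of 1824 ± 27.4 bases (SD, n = 3 each), but the groups overlapped (exact permutation P = 0.2, adjusted over the 10 members 0.75). The gene counts and RSEM also differed in level for *DELE1*, for which RSEM assigned 0.866 to 0.884 times the counted fragments. The part of transcript choice in this difference was not tested.

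**Figure D2:**
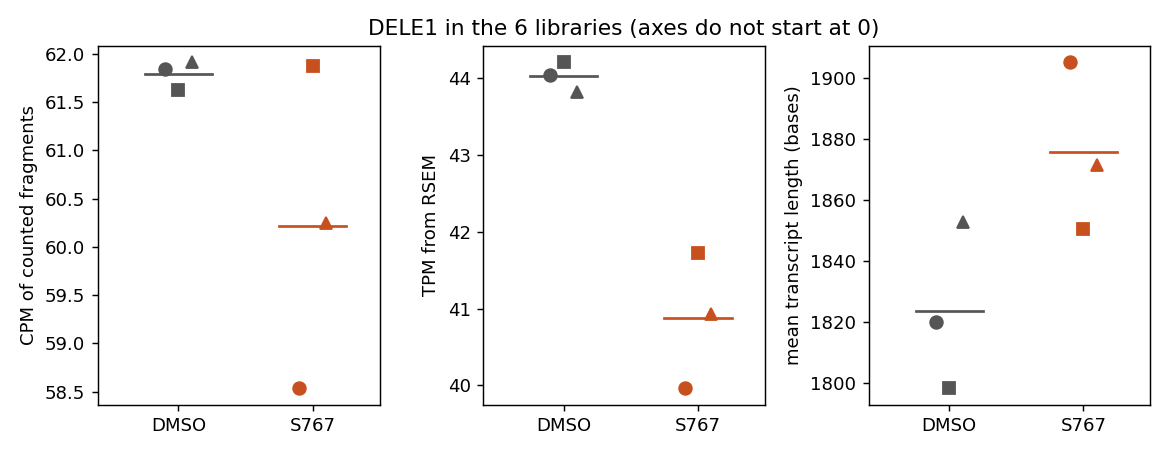
*DELE1* in each library as CPM of gene counts, as TPM and as mean transcript length in bases, with group means. The axes do not start at 0, the groups overlap in CPM and in length, and they are apart in TPM, at 43.8 to 44.2 in DMSO and 40.0 to 41.7 in S767.

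For *AFG3L2* the TPM values were 71.9, 81.5 and 77.3 in DMSO and 70.9, 70.4 and 71.2 in S767. The S767 libraries lay within less than 1 TPM of each other just under DMSO replicate 1, and the log2 difference was -0.12. For *HTRA2* the values were 58.1, 57.9 and 57.3 TPM in DMSO and 53.7, 56.9 and 55.6 TPM in S767, a log2 difference of -0.06. Both separations have an exact permutation P of 0.1, and neither gene separated in CPM, a scale on which 9.21% of all tested genes (4.08% lower and 5.12% higher) and 0 members did.

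The levels of proteases that work as partners were set against each other. The ratio of *CLPP* to *CLPX* in TPM was 4.06, 3.37 and 3.55 in DMSO and 3.66, 3.82 and 3.36 in S767, with means of 3.66 ± 0.359 and 3.61 ± 0.231 (SD, n = 3 each). S767 replicate 3 lay just under the DMSO range and the other S767 values inside it, and the log2 difference was -0.02 (exact permutation P = 0.9). The ratio of *AFG3L2* to *SPG7* was 1.25, 1.48 and 1.55 in DMSO and 1.22, 1.36 and 1.33 in S767, lower in S767 in each of the 3 pairs with overlapping groups and a log2 difference of -0.12 (exact permutation P = 0.3). Taken from gene counts in place of TPM, that difference was -0.037.

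OMA1 and YME1L1 cleave the same substrate, OPA1, at neighbouring sites. The ratio of *OMA1* to *YME1L1* was 0.229, 0.203 and 0.185 in DMSO and 0.241, 0.223 and 0.212 in S767. Each S767 value was above the DMSO value of its number, yet DMSO replicate 1 exceeded S767 replicates 2 and 3, and the log2 difference of 0.14 had an exact permutation P of 0.3. Adjusted over the 3 ratios the permutation P values were 0.9, 0.45 and 0.45. These tests leave out the replicate number, and no paired test of the ratios was made. They therefore do not judge the differences within pairs.

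Other genes of the system were described from lists assembled by function. Of 12 further mitochondrial proteases and processing peptidases, all tested, 0 reached an unadjusted P under 0.05 in edgeR and 0 an adjusted P under 0.05. Their log2 fold changes spanned -0.04 to 0.10 with a median of 0.0020, and 6 were above 0. In the blocked fit 2 were higher at an unadjusted P under 0.05, beside 9.38% of all tested genes, and 0 passed after adjustment. These were *LACTB*, a serine protease of the intermembrane space, with 0.09, and *IMMP2L*, a subunit of the inner-membrane peptidase, with 0.09, both named after their values were seen.

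Of 10 mitochondrial chaperone genes, 0 passed in either test without the block, with a median log2 fold change of -0.04 and 3 above 0. *HSPD1*, the matrix chaperonin, was at 1255 CPM in DMSO and 1219 CPM in S767, a log2 fold change of -0.04. In the blocked fit 2 were lower at an unadjusted P under 0.05, beside 7.39% of all tested genes, namely *HSPE1*, the cochaperonin of HSPD1, with -0.09, and *HSPA9*, the matrix HSP70, with -0.07. Both were lower in all 3 pairs, and neither passed after adjustment, with edgeR adjusted P of 0.0777 and 0.151. The *HSPE1* value rests on gene counts of only 58.7 CPM in DMSO, beside 1010 TPM. For *HSPD1* the DMSO values were 1255 CPM and 894 TPM. Gaps of this kind were also present at *PAM16* of this list, with 6.61 CPM and 90.8 TPM in DMSO. In the list of further proteases, *PARL* had 9.56 CPM and 108 TPM, and *IMMP1L* 5.45 CPM and 31.9 TPM, in DMSO. The tests of these genes rest on the gene counts. The reason for the gaps between counts and TPM was not tested.

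The 14 scaffolds, partners and substrates of the proteases held the only gene of these lists that passed the test. The lists were chosen with earlier results of these data known, and the paper names this gene, *ALAS1*, as up-regulated after S767. Its pass therefore tells nothing about the list as a whole. *ALAS1*, the first enzyme of haem synthesis and a substrate of matrix proteases, rose from 58.2 ± 3.13 CPM in DMSO to 104.3 ± 5.83 CPM in S767 (SD, n = 3 each). The log2 fold change was 0.84 with a standard error of 0.06 (edgeR adjusted P = 0.00435). In this fit without the block *ALAS1* was the only gene of all 20725 to pass. With the block 670 genes passed, and with DESeq2 without the block 25 did. The next highest of the 14 was at 0.05 and the median was 0.01. Among the genes with a value near 0 were *OPA1* at -0.03, the prohibitin *PHB2* at -0.00024 and *TFAM*, the packaging protein of mitochondrial DNA that LONP1 degrades, at -0.02. In the blocked fit *PGAM5*, a phosphatase of the inner membrane, was lower at -0.07 and an unadjusted P under 0.05, and *ALAS1* was again the only one of the 14 to pass after adjustment.

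Of 14 genes of the integrated stress response, the pathway downstream of DELE1, 0 passed in either direction without the block. *ATF4*, its central transcription factor, was at 429 CPM in DMSO and 415 CPM in S767, and *DDIT3*, which encodes CHOP, at 3.75 and 3.84 CPM. The median log2 fold change was 0.02 and 8 were above 0. For the target gene *ASNS* the test rests on gene counts of 1.66 CPM in DMSO, beside 33.6 TPM. The reason for that gap was not tested. In the blocked fit 4 were lower at an unadjusted P under 0.05, beside 7.39% of all tested genes, with 0 after adjustment. They were the target gene *TRIB3* at -0.15, *ATF5* at -0.09, *EIF2S1*, which encodes eIF2α, at -0.06, and *DDIT4*. *TRIB3* was at 28.4, 26.1 and 34.4 CPM in DMSO and 25.6, 26.2 and 27.9 CPM in S767. In 1 of the 3 pairs it was higher in S767. *DDIT4*, an inhibitor of mTORC1, was at 8.83, 8.30 and 24.5 CPM in DMSO and 8.62, 8.06 and 13.3 CPM in S767. Replicate 3 stood above the others in both groups, and the log2 fold change was -0.48 with a standard error of 0.40 (edgeR adjusted P = 1.00), or -0.35 in the blocked fit.

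The search for profiles like the mean profile of the 10 members covered only other genes with a mean log2 CPM above 5. Over the 6 libraries, *DHX15*, *MAPRE1* and *BRPF1* came closest to that mean profile. Their root-mean-square log2 distance from that profile was 0.0068, 0.0069 and 0.0077 over the 6 libraries. The mean profile itself moved little, from 0.04 above its average in DMSO replicate 2 to -0.02 in S767 replicate 1.

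Several members share their place in the genome with a gene on the other strand. *HTRA2* lies opposite *AUP1* and *LOXL3*, and 44.4% to 48.5% of the fragments at its exons came from the other strand. That share was 5.26% to 6.12% for *AFG3L2*, opposite *TUBB6*, 2.39% to 3.12% for *TRAP1*, opposite *DNASE1*, and 1.38% to 1.54% for *LONP1*, opposite *RPL36*. The counts used here are those of the strand of the gene. In the share from the other strand the treatments did not overlap for 2 members, higher in S767 for *SPG7* and lower for *CLPP*, where they rest on 68 to 140 and 40 to 86 fragments per library, beside 7.40% of the genes with enough such fragments in either direction and 2.23% in the higher direction. The posterior SD that RSEM gives for reads that map to several places was at most 0.0103% of the expected count for any member.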

How the data were processed

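Stranded libraries of polyadenylated RNA from OCI-AML5 cells, 3 with DMSO and 3 with 1 μM S767 for 24 hours, were grouped by treatment and replicate number as in their labels. Per the methods, the authors trimmed reads with Trimmomatic. The submitters' processing notes name STAR 2.7.1a, RSEM 1.2.28 and GRCh38. The annotation release is not given in the sources used here. The authors deposited fragment counts per gene, whole numbers without normalization, regardless of strand and for each strand. They also deposited RSEM expected counts, TPM values, posterior SDs (a score of mapping uncertainty) and transcript lengths. Totals on genes were 149994700 to 258029564 fragments per library, and the summary lines, which name no gene and hold 20.3% of fragments, were left out. Of 60609 identifiers, 58502 occur in GENCODE 29, from which positions on GRCh38 were taken.

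Counts of the reverse strand, the strand of the gene in these libraries, were tested with edgeR 4.0.16 (R 4.3.3; TMM factors, low counts filtered by filterByExpr with a minimum count of 10, prior count 2, quasi-likelihood test, Benjamini-Hochberg adjustment over 20725 genes, called at 0.05). Alternatives were the replicate number as a block, limma 3.58.1, DESeq2 1.42.0, other scalings, filters and units, and leaving out libraries or pairs. RSEM expected counts were rounded before testing. Single values were compared by two-sided exact permutation tests, which leave out the replicate number and cannot go below 0.1 with 3 against 3. The replicate numbers pair the libraries: over 6191 genes with mean log2 CPM above 5, deviations from the group means correlated at 0.779, 0.872 and 0.754 within a number and at -0.623 to -0.241 between numbers. Deviations from a group mean sum to 0 for each gene, so positive values within numbers bring negative ones between them. The negative values therefore add no evidence of pairing. What libraries of a number share is not stated.

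All 10 genes were named, as were genes of the 4 lists with an unadjusted P under 0.05 without the block or an adjusted P under 0.05 with it (only *ALAS1*), and the 3 genes closest in profile. Other genes of the lists were named for their role or after their values were seen. The 10 genes and the lists were chosen with earlier results of these data known. Comparisons of TPM groups, strand shares, transcript lengths and promoter letters were added after the data were examined.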

Additional observations from a re-analysis of the deposited data

Results flagged for a closer look

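At *SPG7*, fragments from the strand opposite to the gene, which are outside the strand-specific counts of the report, made up a larger share in S767 libraries. They made up 0.433%, 0.468% and 0.430% of the fragments at its exons in DMSO and 0.569%, 0.550% and 0.540% in S767, on 97, 68 and 109 such fragments in DMSO and 140, 92 and 101 in S767. Every S767 library was above every DMSO library, with means of 0.444% ± 0.0213 and 0.553% ± 0.0147 (SD, n = 3 each; exact permutation P = 0.1, the smallest that 3 against 3 allow). Of 11345 genes with at least 10 such fragments in every library, 2.23% were separated in this direction and 7.40% in either. The gene *AC092123.1* is annotated on the strand opposite *SPG7*. At *CLPP* the share was apart in the other direction, with means of 0.274% in DMSO and 0.197% in S767, on 40 to 86 fragments per library.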

How the results depend on the processing

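Over 24 alternatives, 210 of the 240 values of the 10 genes kept their direction and their side of the adjusted limit, 29 changed sign and 1, *AFG3L2* at -0.09 in the blocked fit without the replicate 1 pair, passed it. Estimates near 0 changed sign: *CLPP* to -0.0016 in the blocked fit without the replicate 2 pair, *CLPX* to -0.013 and -0.0046 there without the replicate 1 and 3 pairs, *SPG7* to 0.0084 and 0.0086 with log2(TPM + 1) and log2(TPM + 0.1), and *TRAP1* to -0.014 with either, -0.013 with counts of both strands and -0.0061 and -0.0018 in the blocked fit without the replicate 2 and 3 pairs. *YME1L1* changed sign with limma-voom (7.5e-05), no count filter (0.0018), RSEM expected counts (0.0051), both strands (0.00083), the block with limma-voom (0.00036) or RSEM (0.0052), and the block without the replicate 2 pair (0.0079). Leaving out single libraries gave -0.011 to 0.037 for *CLPP*, -0.044 to 0.042 for *CLPX*, -0.013 to 0.0084 for *YME1L1*, -0.033 to 0.058 for *TRAP1*, -0.05 to -0.0068 for *LONP1* (the last without DMSO replicate 2), -0.08 to -0.0062 for *SPG7* (without S767 replicates 1 and 2), -0.06 to -0.016 for *DELE1* (the last without S767 replicate 1), -0.08 to -0.0086 for *HTRA2*, -0.11 to -0.04 for *AFG3L2*, 0.05 to 0.17 for *OMA1* and -0.03 to 0.00079 for the median. The cause was not tested.

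The count of genes past the adjusted limit, 1 in the test without the block, was 670 with the block, 25 with DESeq2, 9 without the count filter, 5 with log2(TPM + 0.1), 609, 630, 394 and 617 with the block and limma-voom, DESeq2, RSEM or library size alone, 2034, 24 and 636 with the block without pair 1, 2 or 3, and 1 to 2 without single libraries. The count of members at an unadjusted P under 0.05, 0 without the block, was 2 with the block, also with limma-voom, DESeq2, RSEM or library size, 1 with log2(TPM + 1) or log2(TPM + 0.1), 5, 1 and 2 without pair 1, 2 or 3, and 0 to 1 without single libraries. After adjustment it was 1 only with the block without the replicate 1 pair, and the block changed no other call of a member. For the 50 genes of the lists, the unadjusted count of 1 was 10 with the block, 11, 6, 10 and 10 with the block and limma-voom, DESeq2, RSEM or library size, 2 with either TPM scale or both strands, 20, 5 and 6 without pair 1, 2 or 3, and 1 to 3 without single libraries. The adjusted count of 1 was 0 with log2(TPM + 1), where *ALAS1* had adjusted P = 0.103, and 8 and 2 with the block without pair 1 or 3. The log2 difference of *CLPP* over *CLPX* was 0.015 from counts and -0.074 to 0.061 without single libraries, that of *AFG3L2* over *SPG7* was -0.037 from counts and -0.22 to -0.06 without single libraries, that of *OMA1* over *YME1L1* was 0.12 and 0.06 to 0.22, and that of *DELE1* -0.038 in CPM.

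With 3 libraries per group, differences between replicate numbers held more of the variance than the treatment for all members but *DELE1*. The replicate number has more degrees of freedom than the treatment, so these shares describe the libraries and are no test. Shares over all tested genes were not computed, and the source of the differences between replicate numbers was not tested.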
